A study of Mus musculus with 8 samples.

Results

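Cholesterol synthesis, cholesterol transport and the control of both by the sterol regulatory element-binding proteins (SREBPs) were followed here through a set of 40 genes. The genes were chosen by symbol from knowledge of the pathway, with no measured value in the rule but with earlier results of these data known. They comprise 17 enzymes of sterol synthesis, 5 genes of SREBP control, 3 lipoprotein receptors, 4 genes of intracellular transport, esterification and turnover, 7 genes of efflux, apolipoproteins and their nuclear receptors, and 4 enzymes of fatty acid synthesis. The thiolase Acat2 was listed with intracellular transport and not with the enzymes of sterol synthesis. Of the 40 symbols, 36 were found in the deposited results table and joined by transcript identifier to the normalized counts, out of 10588 genes tested in all, and all 36 passed the filter on low values described below. The other 4, Hmgcs1 (HMG-CoA synthase), Idi1 (isopentenyl diphosphate isomerase), Tm7sf2 (a sterol reductase) and Nr1h3 (liver X receptor alpha), had no row under these symbols and were not analysed here.

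Cholesterol crosses the blood-brain barrier poorly, and the brain makes nearly all of its own. Acetyl-CoA is built into mevalonate and isoprenoids, a pair of farnesyl units is joined to squalene, squalene is oxidized and closed to lanosterol, and lanosterol is turned into cholesterol in a series of steps. When membrane sterol is low, Scap carries SREBPs out of the endoplasmic reticulum to be cleaved, and the released fragments switch on the enzymes, whereas Insig proteins hold the complex back when sterol is high. Oxysterols do the reverse through the liver X receptors, which switch on the export genes Abca1, Abcg1 and Apoe. In the adult brain astrocytes supply neurons with cholesterol on apolipoprotein E particles, and neurons clear surplus cholesterol by the hydroxylase Cyp46a1.

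Poly(A)+ RNA from the right cortex was compared between 4 bigenic and 4 nontransgenic mice, with 3 males in each group. Bigenic mice carried Camk2a-tTA, a tetracycline transactivator driven in forebrain neurons by the Camk2a promoter, together with tetO-ΔNLS-hTDP-43, a human TDP-43 whose nuclear localization signal is mutated so that the protein gathers in the cytoplasm. Nontransgenic controls were bred from parents heterozygous for these transgenes and carried neither. Both groups received doxycycline, which keeps the transgene silent, until 28 days of age, and cortex was taken after 10 days without it, a time at which neurodegeneration begins in this line. The transgene is thus expressed in neurons, while the RNA comes from every cell of the cortex.

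Values are normalized counts, whole numbers that had been scaled per mouse, and the columns carry animal numbers that no sample label ties to a replicate, so that mice are lettered a to d within a group and values are listed in that order. Reads counted on genes came to about 10.6 M to 31.9 M per bigenic library and about 20.5 M to 29.0 M per nontransgenic library, and 3 reads correspond to 1.94 to 6.20 normalized counts, far below every value given here. Bigenic mouse b, the shallowest library, stood apart from its group with a median distance of 0.30 on the log2 scale from the mean of the other bigenic mice over all genes tested, against 0.13 to 0.14 for the others, and calls that turn on it are given with and without it. Endogenous Tardbp was lower in the bigenic mice (log2 fold change = -0.33 ± 0.07 SE, limma adjusted p = 0.00645), and the human transgene itself was not analysed here. At a limma adjusted p below 0.05, 20.5% of all genes tested were higher and 15.4% lower. Among lists of cell type markers, 8 of 16 astrocyte genes and 5 of 10 microglial genes were lower (50.0% each) and 0 of either were higher. Of 15 oligodendrocyte genes, 1 was higher (6.7%) and 0 were lower, and 1 of 9 endothelial genes was lower (11.1%). Of 14 neuronal genes, 3 were higher (21.4%) and 6 were lower (42.9%). Of the 6 choroid plexus genes found, 5 were higher (83.3%). The summed level of those 6 was 14275 to 29482 in the bigenic mice against 6591 to 8221, with Ttr at 7741 to 18520 normalized counts against 236 to 1023, while Kcnj13 and Folr1, which also define that tissue, had no row under their symbols. In all, 8 of the 14 choroid plexus genes listed were not tested. The filter on low values asks for 10 RPM in 1 mouse or more, so genes low in the controls enter only if high in bigenic mice. The share of higher genes in this list is therefore partly set by the filter.

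Of the 36 genes, 14 passed an adjusted p-value of 0.05 and were called differentially expressed, which is 38.9% of them against 35.9% of all genes tested. Upregulation was called for 7, or 19.4% against 20.5% of all genes, and downregulation for the other 7, or 19.4% against 15.4%. The share of differentially expressed genes in the set therefore lay near that of the transcriptome, and so did the median log2 fold change, which was -0.07 in the set and 0.03 over all genes. The normalized counts of bigenic and nontransgenic mice did not overlap for 14 of the 36 genes, or 38.9%, where 39.0% of all genes showed no overlap. By role, the direction of the calls divided. Of the 14 enzymes of sterol synthesis tested, 4 fell and 1 rose, or 28.6% and 7.1% against 15.4% and 20.5% of all genes. In either direction 35.7% of these enzymes were called, against 35.9% of all genes. Of the 9 receptors, efflux genes, apolipoproteins and nuclear receptor genes tested, 5 rose and 1 fell. Rises were called for 2 of 3 receptors (66.7%) and 3 of the other 6 genes (50.0%), against 20.5% of all genes. The calls of Lss and Lrp1, both counted here, were lost without some single mice. This division is a description of counts, and no test of the difference between the roles was made.

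**Figure D1:**
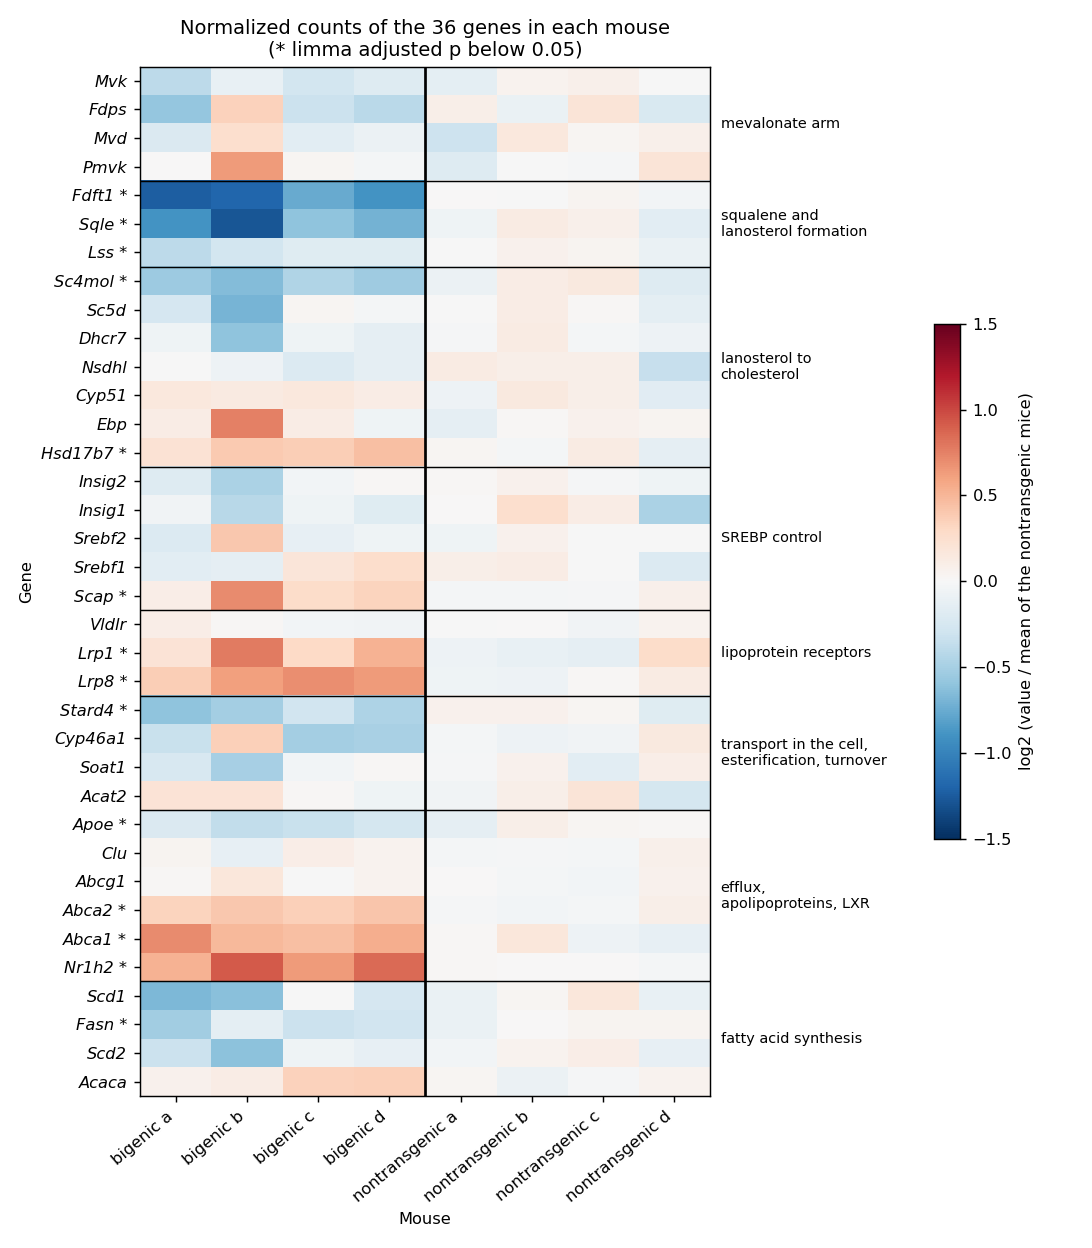
Normalized counts of the 36 genes in each of the 8 mice, drawn as the log2 ratio to the mean of the 4 nontransgenic mice, with genes grouped by role and an asterisk at the 14 with a limma adjusted p-value below 0.05. The rows of Fdft1 and Sqle are the darkest blue in all 4 bigenic mice, the row of Nr1h2 is red in all 4, and bigenic mouse b departs from the other bigenic mice in several rows, among them Cyp46a1, Pmvk and Srebf2.

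The largest falls lay at the entry into sterols proper. Fdft1 (uc007uhi.1, chr14:63763990-63796630 on the minus strand of mm9), squalene synthase, which joins farnesyl units and commits them to sterols, had normalized counts of 398, 412, 558 and 504 in the bigenic mice against 940, 936, 969 and 910 in the nontransgenic mice. Every bigenic value lay well below every nontransgenic value, and the bigenic mean was 0.499 of the nontransgenic mean (468 ± 76.2 against 939 ± 24.2, mean ± SD, n = 4 each). The log2 fold change was -1.02 ± 0.11 (SE), with a limma adjusted p = 0.00019. Exons of Fdft1 overlap exons of Ctsb on the opposite strand, and 80.3% of the 50-base windows in its exons occur once in the genome. Because counting is not stated to use strand, reads of the 2 genes cannot be told apart where they overlap. The same holds for Lss, Srebf1, Scap and Acaca, whose exons overlap those of 4930483K19Rik, Rai1, 5830462I19Rik and Gm17722.

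Sqle (uc007vxq.1, chr15:59146632-59162747, plus strand), squalene epoxidase, a rate-limiting enzyme that adds the oxygen to squalene, was measured at 691, 531, 848 and 791 in the bigenic mice, against 1235, 1409, 1360 and 1155 in the controls. The groups did not overlap, and mouse b had the lowest value. Its log2 fold change was -0.87 ± 0.14, with a limma adjusted p = 0.00145, and without mouse b it was -0.73, with an adjusted p = 0.000121. Lss, lanosterol synthase, which closes the ring in the next step, was measured at 287, 312, 331 and 332 against 375, 394, 386 and 351. These groups did not overlap either, but the difference was small, at -0.26 ± 0.09 with a limma adjusted p = 0.0498. The call for Lss was lost when any 1 of 6 mice was left out, with adjusted p-values up to 0.135 without nontransgenic mouse b, and kept without bigenic mouse b and without nontransgenic mouse d. Over all genes, 3796 were called with every mouse and 4782 without bigenic mouse b. Leaving out any other mouse gave 2654 to 3540 calls over all genes. Thus all 3 enzymes between farnesyl diphosphate and lanosterol were lower, Fdft1 and Sqle by a wide margin and Lss at the edge of the threshold.

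Upstream, the mevalonate arm gave no call. The kinases Mvk and Pmvk, the decarboxylase Mvd and farnesyl diphosphate synthase Fdps had log2 fold changes of -0.24, 0.17, -0.04 and -0.23, each with a 95% interval that included 0. Fdps was measured at 144, 273, 172 and 162 against 228, 201, 246 and 184, so that mouse b alone among the bigenic mice lay above the nontransgenic range, and without mouse b Fdps was lower by a log2 fold change of -0.42, with a limma adjusted p = 0.024. For Fdps 34.5% of exon windows occur once in the genome, so much of its message was out of reach of uniquely mapping reads. Pmvk was highest in the same mouse too, with 1026 in mouse b against 645 to 672 in the other bigenic mice and 574 to 754 in the nontransgenic mice. Without mouse b the log2 fold changes of Pmvk and Mvd were 0.01 and -0.14, and neither was called.

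Downstream of lanosterol the enzymes divided. Sc4mol (uc009lux.1, chr8:67196936-67212589, minus strand), the sterol methyl oxidase now called Msmo1, was measured at 1164, 1082, 1247 and 1177 in the bigenic mice against 1595, 1835, 1884 and 1492 in the nontransgenic mice. The groups did not overlap, with a log2 fold change of -0.54 ± 0.09 and a limma adjusted p = 0.00208. Hsd17b7 (uc007dlp.1, chr1:171879666-171899372, minus strand), the keto-reductase that completes the same demethylation, was measured at 693, 780, 771 and 811 against 607, 582, 647 and 543. It was higher in every bigenic mouse than in any nontransgenic mouse, with a log2 fold change of 0.36 ± 0.09 and a limma adjusted p = 0.00959. Nsdhl, the decarboxylase that acts between these enzymes in the same removal of methyl groups, had values of 316 to 362 against 287 to 396 and was not called (log2 fold change = -0.09, 95% interval -0.36 to 0.17). The messages of Sc4mol and Hsd17b7, which act in the same removal of methyl groups, thus changed in opposite directions, while that of the enzyme between them was not called.

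The remaining 4 enzymes of this part were not called. Cyp51, the demethylase of lanosterol, had a log2 fold change of 0.15 (95% interval -0.04 to 0.33), with normalized counts of 2185 to 2265 in the bigenic mice against 1796 to 2243 in the controls. The isomerase Ebp, the desaturase Sc5d and the reductase Dhcr7, which makes cholesterol in the last step of its branch, had log2 fold changes of 0.23, -0.24 and -0.22. In each of these 3 genes mouse b held the extreme value of its group, and without it the log2 fold changes were 0.05, -0.08 and -0.09. Their 95% intervals, such as -0.50 to 0.07 for Dhcr7, leave differences of that size possible.

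**Figure D2:**
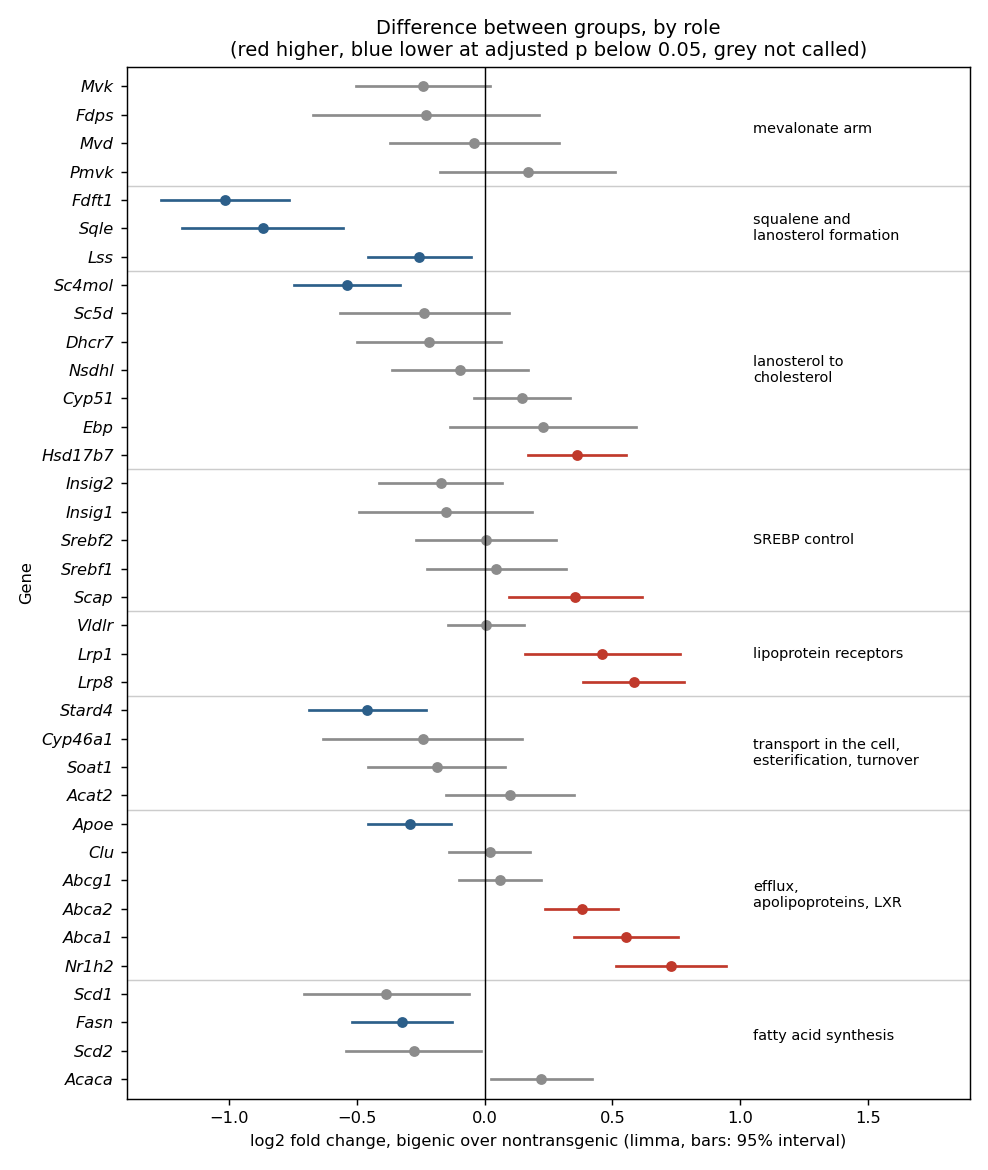
Log2 fold change of bigenic over nontransgenic mice for the 36 genes (points) with limma's 95% interval (bars), grouped by role, with red for higher, blue for lower and grey for genes past no threshold. The 3 genes of squalene and lanosterol formation lie to the left of 0, from -1.02 for Fdft1 to -0.26 for Lss, and the 3 highest genes are Nr1h2 at 0.73, Lrp8 at 0.58 and Abca1 at 0.55.

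Promoter sequence was examined because SREBPs act with the CCAAT-binding factor NF-Y and with Sp1 at many sterol genes. The windows run from 250 bases before to 50 bases after each RefSeq start in GRCm38.p6, a later build than mm9, and a window was found for 32 of the 40 genes (Sc4mol as Msmo1). Fdft1, Sqle, Stard4, Scd1, Scd2, Fdps, Clu and Abcg1 were not in the table used. Letters were searched on both strands for TCACNCCAC (a form of the sterol regulatory element), CCAAT (the NF-Y box) and GGGCGG (the Sp1 box). CCAAT was present in at least 1 start window of 14 of the 14 sterol synthesis enzymes with a window, against 8 of the other 18 genes and 41.1% of all 27025 genes in the table. GGGCGG was present for 13 of the 14 enzymes, 12 of the other 18 genes and 38.2% of all genes. TCACNCCAC was found for Hmgcs1 alone among the 32, against 1.44% of all genes. Counted by window, 82.4% of the 17 enzyme windows held CCAAT, against 37.4% of all 32851 windows.

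**Figure D3:**
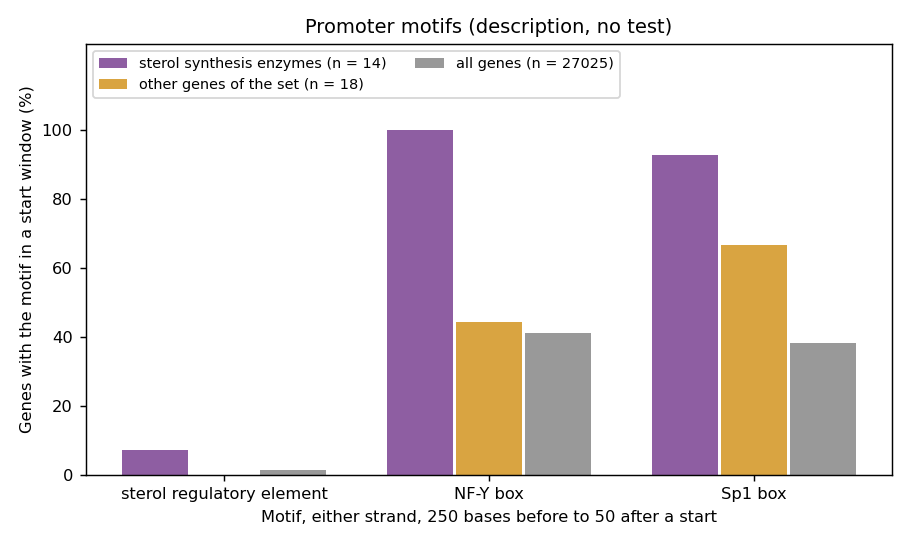
Share of genes (%) with each motif on either strand in a window from 250 bases before to 50 bases after a RefSeq start, for the 14 sterol synthesis enzymes, the other 18 genes of the set and all 27025 genes. The NF-Y box stands at 100% in the enzymes, 44.4% in the other genes and 41.1% in all genes, a description with no test.

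The following stretches show the match nearest to and before the start for enzymes that fell (Sc4mol, Lss, Fasn), rose (Hsd17b7) or were not called (Cyp51), and the sterol regulatory element of Hmgcs1. Capitals mark the motif on the strand of the gene, so that ATTGG is CCAAT read on the opposite strand.
Sc4mol: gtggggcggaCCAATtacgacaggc
Lss: tgatgctctgATTGGccgagctcgc
Fasn: tcggtgtccaATTGGtttcgatgtg
Hsd17b7: ccgagccttgATTGGtcgaggtgcg
Cyp51: ctgtccgccaCCAATctggtcctga
Hmgcs1: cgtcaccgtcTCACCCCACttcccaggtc
In GRCm38.p6 these lie at chr8:64733619-64733643 (minus strand, Sc4mol), chr10:76531533-76531557 (plus, Lss), chr11:120824592-120824616 (minus, Fasn), chr1:169969203-169969227 (minus, Hsd17b7), chr5:4104712-4104736 (minus, Cyp51) and chr13:119690204-119690232 (plus, Hmgcs1). The first letter of the motif is 55 bases before the start in Sc4mol, 62 in Lss, 59 in Fasn, 12 in Hsd17b7, 29 in Cyp51 and 137 in Hmgcs1. The same box thus stood before enzymes that fell, rose and were not called. By call, CCAAT was present for 3 of the 4 downregulated genes with a window and 1 of the 7 upregulated genes. It was present for 15 of the 17 genes that were not called, and for 41.1% of all genes. Hsd17b7, the upregulated gene with the box, was the only enzyme of sterol synthesis among the 7. The downregulated genes Fdft1, Sqle and Stard4 had no window, and no test by call was made.

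Of the 5 genes of SREBP control, 1 was called higher and 4 were not called. Srebf2, the SREBP that drives cholesterol synthesis, was measured at 2847, 4341, 3007 and 3136 in the bigenic mice, against 3138, 3429, 3274 and 3257 in the controls. Mouse b lay above every other mouse and the other 3 bigenic mice lay below every nontransgenic mouse, by as little as 3136 against 3138, and the log2 fold change was 0.01 (95% interval -0.27 to 0.28). Without mouse b it was -0.13, with a limma adjusted p = 0.105. Srebf1, the SREBP of fatty acid genes, was not called either, at 0.05 (95% interval -0.22 to 0.32).

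Insig1, itself a target of SREBPs and so a gene that often follows their activity, was measured at 952, 740, 942 and 867 against 991, 1171, 1066 and 710. The groups overlapped, since nontransgenic mouse d was the lowest of all 8, and the log2 fold change was -0.15 ± 0.15 (95% interval -0.49 to 0.19). It was -0.30 without nontransgenic mouse d (limma adjusted p = 0.0686), -0.06 without nontransgenic mouse b and -0.07 without bigenic mouse b, so its size turned on single mice. For Insig1 66.9% of exon windows occur once in the genome. Insig2 was not called, at -0.17 (95% interval -0.41 to 0.07), or -0.07 without bigenic mouse b. Scap, the escort of SREBPs, was called higher, with values of 1616, 2449, 1818 and 1890 against 1471, 1477, 1482 and 1579, a log2 fold change of 0.35 ± 0.12 and a limma adjusted p = 0.0392. Scap did not overlap between groups, but the call was lost without any 1 of 6 mice, with adjusted p-values up to 0.0933 without nontransgenic mouse b. Without that mouse 2662 of all genes were called, in place of 3796. Without bigenic mouse b, which held the highest value, the log2 fold change fell to 0.24 and the adjusted p was 0.0169.

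Among lipoprotein receptors, Lrp8 (uc008uae.1, chr4:107474866-107549445, plus strand), an apolipoprotein E receptor that neurons also use for reelin, had values of 3637, 4310, 4555 and 4363 in the bigenic mice against 2680, 2657, 2851 and 3052 in the nontransgenic mice. It was higher in every bigenic mouse, by a log2 fold change of 0.58 ± 0.09 with a limma adjusted p = 0.00103. Lrp1, a large receptor for apolipoprotein E particles and many other ligands, was measured at 16646, 24786, 17840 and 20756 against 13759, 13396, 13180 and 17547. Its groups overlapped, because nontransgenic mouse d lay above bigenic mouse a, and it was called higher at 0.46 ± 0.14 with a limma adjusted p = 0.0253. That call was lost without bigenic mouse d or without any 1 of nontransgenic mice a, b and c, with adjusted p-values of 0.0599, 0.0687, 0.0731 and 0.0755. In these fits 2654 to 3227 of all genes were called, in place of 3796. Vldlr, the third receptor, had a log2 fold change that rounded to 0.00, with a 95% interval of -0.14 to 0.15.

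The largest rise of the set was in Nr1h2 (uc009gpz.1, chr7:51804986-51809321, minus strand), liver X receptor beta, the sterol-sensing nuclear receptor that is widely expressed in brain. It was measured at 945, 1249, 1025 and 1186 in the bigenic mice against 670, 662, 663 and 644 in the nontransgenic mice. The nontransgenic values lay close together and every bigenic value lay above them. The log2 fold change was 0.73 ± 0.10, with a limma adjusted p = 0.000491. Nr1h3, the other liver X receptor, was not analysed here.

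Abca1 (uc008swu.1, chr4:53043659-53172767, minus strand), the transporter that loads cholesterol onto apolipoprotein E and a target of liver X receptors, had values of 2050, 1754, 1705 and 1825 against 1264, 1402, 1186 and 1147. The groups did not overlap, and the log2 fold change was 0.55 ± 0.09 with a limma adjusted p = 0.00156. Abca2 (uc008isc.1, chr2:25284223-25304060, plus strand), a transporter of endosomal and lysosomal membranes linked to sterol trafficking, rose in the same manner, with 6246, 6554, 6357 and 6622 against 4877, 4823, 4872 and 5252, a log2 fold change of 0.38 ± 0.06 and a limma adjusted p = 0.00179. Abcg1, another transporter under liver X receptors, did not follow, with 1353 to 1532 against 1316 to 1416 and a log2 fold change of 0.06 (95% interval -0.10 to 0.22).

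Apoe (uc009fmy.2, chr7:20281458-20284515, minus strand), which carries cholesterol out of astrocytes and microglia, was measured at 10409, 9377, 9599 and 10108 in the bigenic mice against 10984, 12823, 12351 and 12264 in the nontransgenic mice. It was lower in every bigenic mouse, with a bigenic mean 0.816 of the nontransgenic mean, a log2 fold change of -0.29 ± 0.07 and a limma adjusted p = 0.0122. After quantile normalization the adjusted p was 0.0876. Apoe and Abca1, both targets of liver X receptors, thus changed in opposite directions. The summed level of the 16 astrocyte markers was lower as well, at 150047 to 176577 against 188536 to 204745, or 0.839 of the nontransgenic mean, and that of the 10 microglial markers was 6116 to 8135 against 8231 to 9539, or 0.772. None of the defining astrocyte markers was at 0, and the first 3 of the list, Aqp4, Gja1 and Aldh1l1, were among the 8 of 16 called lower, at 1975 to 2820, 4376 to 5645 and 836 to 1077 in the bigenic mice against 2819 to 4225, 6136 to 7008 and 1092 to 1208. The part of these cells in the fall of Apoe was not tested, and in bulk tissue fewer cells of a type and less RNA per cell cannot be told apart. Clu, an apolipoprotein of astrocytes, was not called, at 0.02 (95% interval -0.14 to 0.18).

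**Figure D4:**
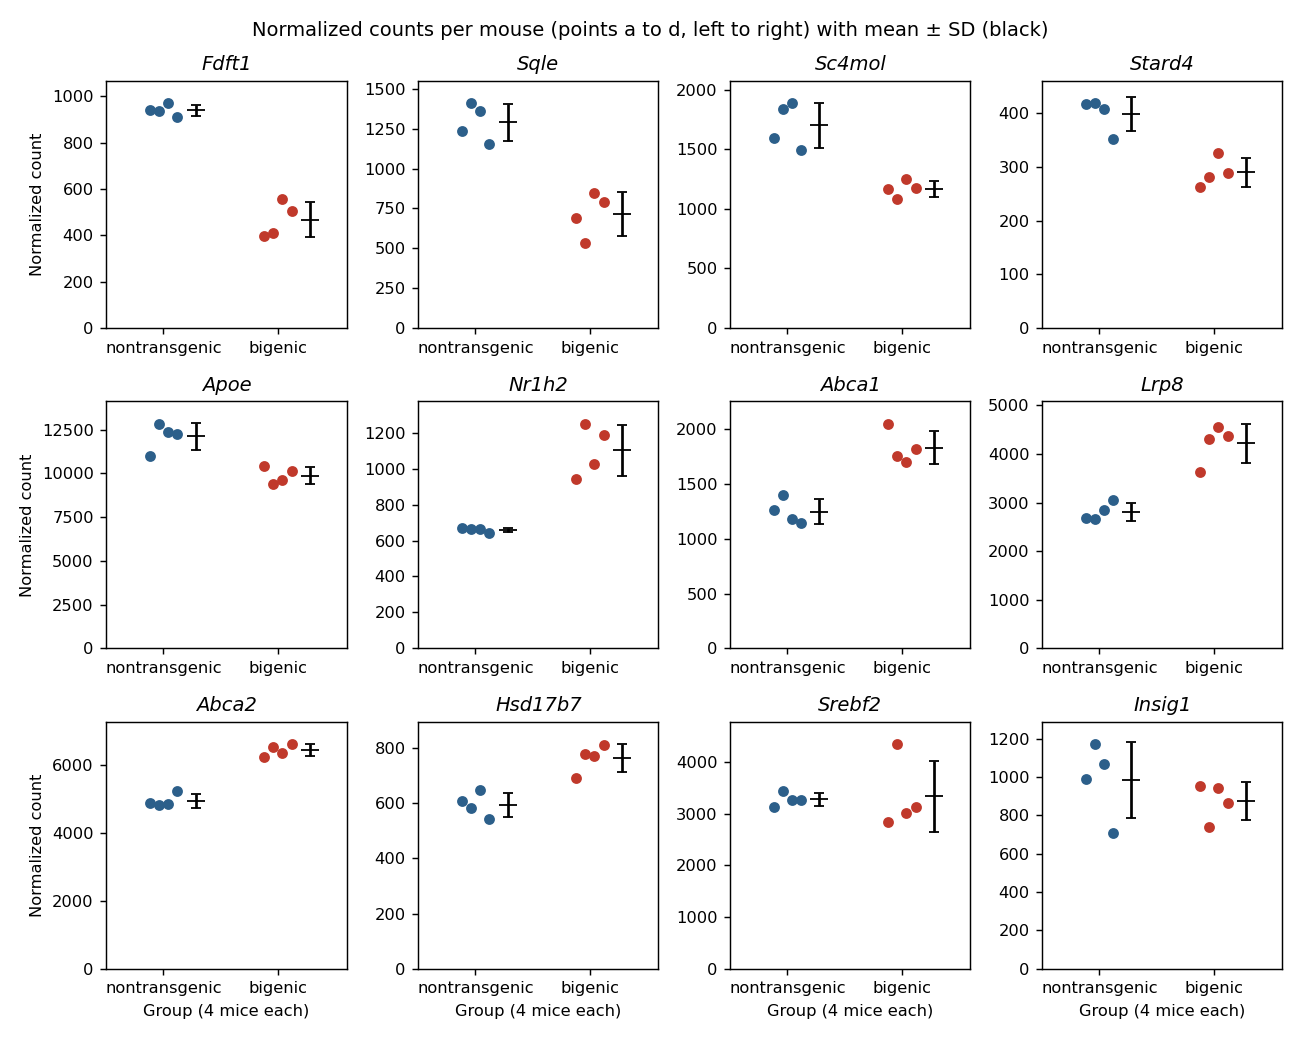
Normalized counts of 12 genes in each mouse (points a to d from left to right) with the mean ± SD of each group in black, on axes that start at 0. Fdft1, Sqle, Sc4mol, Stard4 and Apoe are lower and Nr1h2, Abca1, Lrp8, Abca2 and Hsd17b7 higher in all 4 bigenic mice, while Srebf2 and Insig1 overlap between the groups.

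Of the genes that move, store or remove cholesterol inside the cell, Stard4 (uc008ejr.1), a soluble sterol carrier regulated by SREBPs, was downregulated, with 263, 281, 326 and 289 against 417, 418, 407 and 352. Its groups did not overlap, and the log2 fold change was -0.46 ± 0.10 with a limma adjusted p = 0.0072. Soat1, which esterifies cholesterol for storage, was not called, at -0.19 (95% interval -0.45 to 0.08), or -0.09 without bigenic mouse b. Acat2 was listed with these genes, but as the cytosolic acetoacetyl-CoA thiolase it acts before the mevalonate arm. It is not counted among the 14 enzymes of sterol synthesis, and it was not called, at 0.10 (95% interval -0.15 to 0.35), or 0.06 without bigenic mouse b. For Acat2 57.8% of exon windows occur once in the genome.

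Cyp46a1, the neuronal cholesterol hydroxylase, depended on 1 library. Its normalized counts were 2033, 3282, 1794 and 1829 in the bigenic mice, against 2504, 2435, 2465 and 2848 in the controls, so that bigenic mice a, c and d lay below and mouse b above all nontransgenic mice. With every mouse the log2 fold change was -0.24 (95% interval -0.63 to 0.15, limma adjusted p = 0.302), and without mouse b it was -0.44 (limma adjusted p = 0.000811). In the same mouse the summed level of the 14 neuronal markers was 255831, against 188576 to 195345 in the other bigenic mice and 225846 to 244891 in the nontransgenic mice. The part of this difference in the value of Cyp46a1 was not tested.

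Of the 4 enzymes of fatty acid synthesis, which share SREBP control, 1 was called lower and 3 were not called. Fasn, fatty acid synthase, was measured at 3455, 4486, 3982 and 4065 against 4655, 4996, 5135 and 5132 and was called lower, at -0.32 ± 0.09 with a limma adjusted p = 0.018. The groups did not overlap, but the call was lost without nontransgenic mouse b (limma adjusted p = 0.0509) or c (0.0574). Scd1 and Scd2, desaturases that make monounsaturated fatty acids, missed the threshold at -0.38 (limma adjusted p = 0.0626) and -0.28 (0.0906), and both values turned on single mice. Without bigenic mouse c, which held the highest value of its group in both genes, the adjusted p-values were 0.0128 and 0.0467, and without nontransgenic mouse c they were 0.162 and 0.205. Without bigenic mouse b the log2 fold changes were -0.31 and -0.17. Acaca, acetyl-CoA carboxylase, pointed the other way, with 1085, 1125, 1321 and 1326 against 1063, 980, 1029 and 1078. Its groups did not overlap and it was not called, at 0.22 ± 0.09 with a limma adjusted p = 0.0763, or 0.0425 without bigenic mouse a and 0.0257 without mouse b. For Acaca 39.5% of exon windows occur once in the genome.

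Levels were compared between genes after division by the length of their merged exons in GENCODE, as normalized counts per kb, which are not corrected for exon sequence that occurs more than once in the genome. In the nontransgenic mice the highest levels belonged to Apoe (6114 ± 397, mean ± SD), Scd2 (5151 ± 343) and Clu (5030 ± 176), of which Scd2 and Clu lay within each other's spread. Cyp46a1 (1210 ± 90.7), Scd1 (959 ± 90.1), Lrp1 (817 ± 117) and Srebf2 (656 ± 23.9) followed in that order, and Scd1 and Lrp1 differed by less than the sum of their SDs. Among enzymes of sterol synthesis Cyp51 (472 ± 48.1), Pmvk (435 ± 48.7) and Sc5d (405 ± 29.4) had the highest values. Cyp51 and Pmvk differed by less than the sum of their SDs, and so did Pmvk and Sc5d. Fdps (174 ± 22.4) may be understated because few of its exon windows are unique. Lss (34.9 ± 1.73) had the lowest value, although the merged exons of Lss, 10.8 kb long, include annotated forms that may be little used. Fdft1 stood at 328 ± 8.45 per kb in the nontransgenic mice and 164 ± 26.7 in the bigenic mice. Sc4mol stood at 277 ± 30.6 and 190 ± 11.0, and in the bigenic mice these enzymes differed by less than the sum of their SDs.

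**Figure D5:**
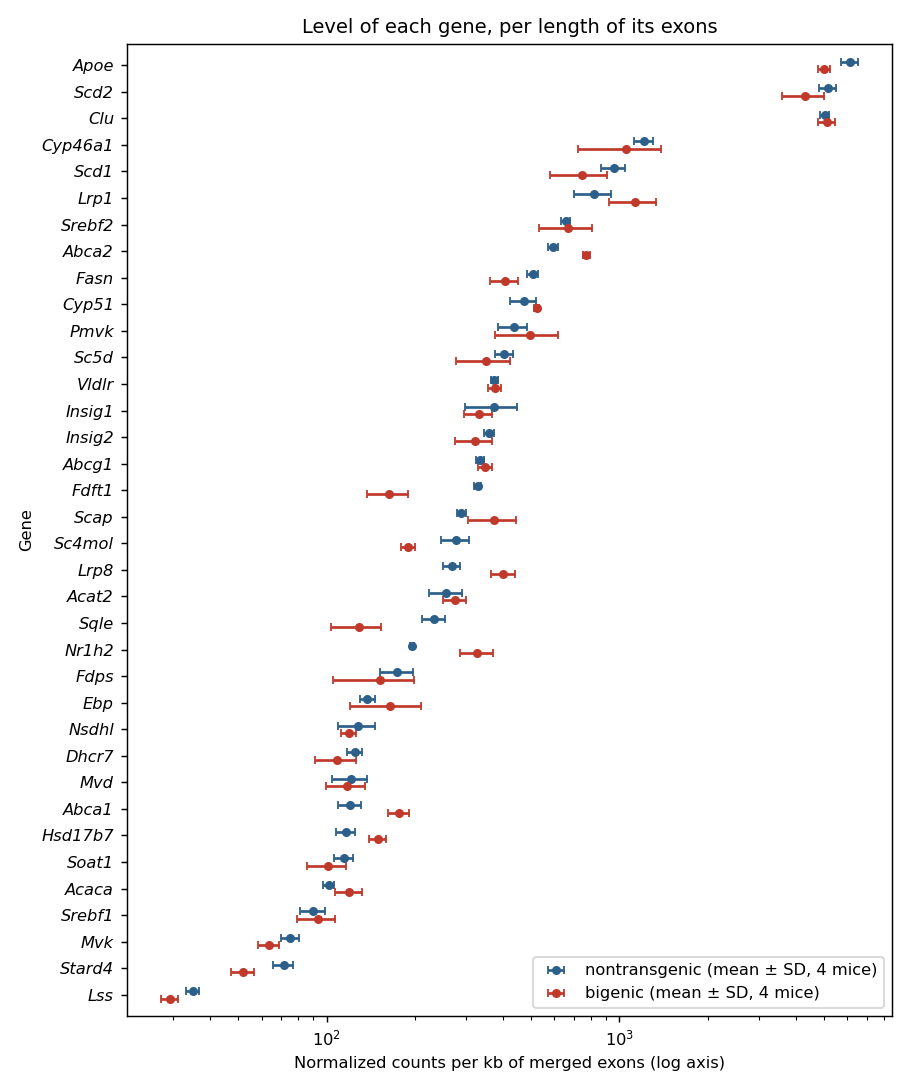
Mean ± SD (n = 4 mice) of normalized counts per kb of merged exons, on a log axis, for the 36 genes in nontransgenic (blue) and bigenic (red) mice, ordered by the nontransgenic level. Apoe, Scd2 and Clu stand above every other gene in both groups, and Lss is lowest at 34.9 and 29.2.

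Beyond these genes, a list of 87 other genes of sterol and lipid metabolism had 77 tested, of which 9 were higher and 8 lower, or 22.1% against 35.9% of all genes, with a median log2 fold change of 0.03. Without nontransgenic mouse c the 8 lower genes became 3, while the calls over all genes went from 3796 to 2654. The smallest adjusted p-values among the lower genes were those of Nfyb, Pgrmc1 and Acsl4. Nfyb, a subunit of the NF-Y factor that binds CCAAT, was measured at 937, 893, 946 and 893 against 1618, 1499, 1724 and 1682 (log2 fold change = -0.83 ± 0.07, limma adjusted p = 5.41e-05). It was the only gene called lower among 11 tested in the part of the list that also holds Nfya and Nfyc. That is 9.1%, against 15.4% of all genes.

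Pgrmc1, a heme protein that binds Cyp51 and other cytochromes, was measured at 4550, 4378, 3757 and 3495 against 6625, 6321, 6072 and 5975 (log2 fold change = -0.63 ± 0.09, limma adjusted p = 0.000926). Acsl4, a ligase that activates arachidonic acid, had 3107, 2928, 3017 and 2911 against 4114, 3689, 3808 and 3865 (log2 fold change = -0.37 ± 0.07, limma adjusted p = 0.00248). The groups did not overlap in these 3 genes, which adds no support because they were picked by adjusted p-value.

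The 3 smallest adjusted p-values among the higher genes were those of Abca3, Gramd1a and Abcg4. Abca3, a lipid transporter, was measured at 3200, 3927, 3312 and 3549 against 2361, 2228, 2168 and 2403 (log2 fold change = 0.61 ± 0.08, limma adjusted p = 0.000586). Gramd1a, which moves cholesterol from the plasma membrane to the endoplasmic reticulum, had 3053, 2953, 2878 and 2972 against 2088, 1941, 2057 and 2277 (0.51 ± 0.07, limma adjusted p = 0.00072). Abcg4, a sterol exporter of brain, had 1035, 1077, 921 and 994 against 727, 740, 723 and 746 (0.45 ± 0.07, limma adjusted p = 0.00151). The groups did not overlap in these 3 genes either, which were picked in the same way. Over the whole list the groups did not overlap for 23 of the 77 genes, or 29.9%, against 39.0% of all genes. Within the list, 2 of 18 genes of uptake and intracellular transport and 2 of 10 genes of efflux, oxysterols and nuclear receptor partners were called higher, or 11.1% and 20.0% against 20.5% of all genes. The list was picked with earlier results of these data known, and its counts carry no test.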

How the data were processed

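The authors sequenced poly(A)+ RNA of the right cortex from 4 mice per genotype. After adaptor trimming (cutadapt), reads were aligned to mm9 (Bowtie 0.12.7), those with a unique place were kept, and exon counts (bedtools) were merged per gene. Bowtie does not split reads over introns, so reads that span exon junctions were not counted. The library was described as stranded, but no use of strand in counting is stated. The deposited signal, a normalized count for each of 28662 transcripts and each mouse, is given in whole numbers that are not raw counts, and its scaling is not given in the sources used here. The number of reads behind it was estimated from gaps between whole numbers, which can miss the true step, so depths are approximate and floors of 3 reads cover counting error only. A second deposited table pairs identifiers with symbols. Its other columns, the authors' DESeq2 fold changes, standard errors and p-values, were not used.

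Genes reaching 10 RPM of a column's total in 1 mouse or more were tested, 10588 in all. Groups were compared on log2(value + 1), a scale that understates changes of low genes, by linear models with moderated variances that follow the mean (limma 3.58.1, R 4.3.3). P-values were adjusted over all genes tested by the Benjamini-Hochberg method, and 0.05 was the threshold. The main test was limma because the values are normalized. The names of the columns give the group and an animal number, which no label ties to a replicate.

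The genes and lists were chosen with earlier results of these data known. Every gene of the set was accounted for, and values per mouse were printed for each gene past the threshold and, called or not, for Hmgcs1, Sqle, Srebf2, Insig1, Apoe, Abca1 and Cyp46a1 where measured. Of the other sterol and lipid genes, the 3 of lowest adjusted p-value per direction were named. Values per mouse of Fdps and Acaca, which these rules do not cover, were added after they were seen. Positions, exon lengths and overlaps come from GENCODE vM1 on NCBIM37, the assembly called mm9, and the share of 50-base exon windows that occur once was counted in that genome. Promoters come from RefSeq on GRCm38.p6 and no coordinates were converted. Alternatives were pseudocounts of 10 and 0.1, no filter, a filter in every mouse, rescaling to the same total, quantile normalization, array weights, an adjusted p-value below 0.01 and leaving out each mouse. Python 3.11.15, numpy 2.4.6, pandas 2.3.3, scipy 1.17.1 and matplotlib 3.10.9 were used.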

Additional observations from a re-analysis of the deposited data

Results flagged for a closer look

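In each group of 4 mice, a value was singled out when its gap to the nearest other mouse, divided by the whole range of the group, exceeded Dixon's critical value at the 95% level. If groups were independent, chance would single out about 1 in 20, or 3.6 of the 72 examined (36 genes in each of 2 groups of mice). In all, 10 were found. The 72 groups come from the same mice and are not independent, so 10 against 3.6 is not a test. The share singled out over all genes was not counted. Of the 10 values, 3 were in bigenic mouse b, the shallowest library. Pmvk was highest there, at 1026 normalized counts against 645 to 672 in the other bigenic mice, and Cyp46a1 was highest as well, at 3282 against 1794 to 2033. Dhcr7 was lowest there, at 312 against 430 to 452.

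The other 7 were in nontransgenic mouse d. Over all genes tested, the median distance of mouse d from the mean of the other nontransgenic mice was 0.124 on the log2 scale. For nontransgenic mice a, b and c that distance was 0.0759 to 0.0931. Nsdhl and Stard4 were lowest in mouse d, at 287 against 387 to 396 and at 352 against 407 to 418. Lrp1 was highest, at 17547 against 13180 to 13759, and it is this value that overlaps the bigenic mice. Scap was at 1579 against 1471 to 1482, Abca2 at 5252 against 4823 to 4877, Cyp46a1 at 2848 against 2435 to 2504, and Clu at 18194 against 16888 to 17110. No cause was tested for these values.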

How the results depend on the processing

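No paired analysis was possible because the animal numbers of the deposited columns are not shared between groups and no label ties them to the replicate numbers. Of the 14 genes of the set called, 9 were called under every alternative and without each mouse in turn (Fdft1, Sqle, Sc4mol, Stard4, Nr1h2, Lrp8, Abca1, Abca2 and Hsd17b7), and 0 of the 14 changed sign without any mouse. Without each mouse in turn, 5 to 8 genes of the set were called higher and 5 to 9 lower, and their median log2 fold change was -0.10 to -0.03. Among the other sterol and lipid genes, 6 to 12 were called higher and 3 to 9 lower. Over all genes, 2654 (without nontransgenic mouse c) to 4782 (without bigenic mouse b) were called in these fits. With limma's array weights, which gave bigenic mouse b a weight of 0.08, 8 genes of the set were higher and 13 lower. Of the other sterol and lipid genes, 23 were higher and 21 lower. Over all 10588 genes tested, 6455 were called in place of 3796, and 3611 of these 6455 were higher. At an adjusted p-value below 0.01, 5 genes of the set were higher and 4 lower. Of the other genes, 4 were higher and 3 lower. At that threshold 2057 of all 10588 genes tested were called, 1195 of them higher. Without a filter 6 genes of the set were higher and 6 lower. Of the other genes, 9 were higher and 5 lower. In that fit 4153 of 20912 genes were called, 2229 of them higher. The median of the set, -0.07, was 0.00 with a filter in every mouse, which left 33 of the 36 genes. Over 8 alternatives other than leaving out a mouse, the share of higher calls among all genes called was 52.1% to 59.9%, against 57.1%. The cause of these differences was not tested, except that fewer genes are tested under the stricter filter. Depth limits bigenic mouse b most, where 3 reads correspond to about 6.20 normalized counts.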
